A study of Mus musculus with 4 samples.

Results

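The genes described here are the Wnt ligands, the Frizzled receptors and the secreted or scaffold proteins that limit or amplify their signal, as expressed in mouse sciatic nerve. Members were taken by symbol, that is Wnt, Fzd, Sfrp, Dkk, Rspo or Axin followed by a digit, and 44 of the 50593 genes in the table met this rule. They comprise 19 Wnt ligands, 10 Frizzled receptors, 4 secreted Frizzled-related proteins (Sfrp), 4 Dickkopf genes (Dkk), 5 R-spondin symbols and 2 Axin genes. Of these, 43 are protein-coding and Rspo4os is an antisense RNA gene. Nerves were taken at 6 months of age from mice of strain 129S1/SvImJ, 2 of them HSF V30M and 2 HSF WT. Mice of both groups are heterozygous for a deletion of Hsf1, the gene of heat shock factor 1. HSF V30M mice carry in addition a human TTR V30M transgene, on a background lacking mouse Ttr, and the promoter that drives it is not given in the sources used here. HSF WT mice have no transgene, so by these descriptions the groups differ in the transgene and in the mouse Ttr allele together.

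Wnt proteins are lipid-modified secreted ligands that bind Frizzled receptors. With the co-receptors Lrp5 and Lrp6 they keep beta-catenin from being degraded, and with other co-receptors they act on cell polarity and movement. Sfrp proteins bind Wnts outside the cell, Dkk proteins bind Lrp5 and Lrp6, R-spondins raise the number of Wnt receptors on the cell surface, and Axin is the scaffold of the complex that degrades beta-catenin. In Schwann cells, the glia that make peripheral myelin, Wnt signalling has been tied to the expression of myelin genes.

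Levels are given as FPKM, fragments scaled to the length of the transcript and the size of the library, which allows genes of different length to be compared. The table holds 1 value per gene and group, so the spread between mice is not known from it and no test between mice was made here. Differences are on the scale log2((HSF V30M + 1) / (HSF WT + 1)), which understates the change of low genes, and a gene was counted as past the mark when it differed 1.5-fold or more on that scale. The low values of HSF WT were whole multiples of what 1 fragment is worth, which placed its libraries at depths 1.35-fold apart, and those of HSF V30M at depths 1.18-fold apart. From the fragments behind each value a 95% exact binomial interval of the fold was made, which covers counting error only and says nothing of differences between mice. Mouse Ttr, which is null in HSF V30M by design, had an FPKM of 6.10 in the group so labelled and is listed at 0 in HSF WT, and the table does not tell its reads from those of the human transgene. Taken as mouse Ttr this goes against the label, taken as the transgene it does not, and an exchange of the group labels, which would turn every direction given below, cannot be told apart from this gene alone. HSF V30M and HSF WT therefore stand below for the groups labelled so. Where 2 values stand side by side with no group name, HSF V30M comes first. Hsf1 had 7.94 in HSF V30M against 15.0 in HSF WT, 1.88-fold lower with an interval from 1.62 to 2.19, and was past the mark. Among the 15620 genes whose mean reached 1 FPKM, 8.44% lay past the mark on the lower side. The descriptions give both groups the same heterozygous deletion. Whether the groups differ in their Hsf1 alleles was not tested and cannot be told from the table. As to the tissue label, all 10 markers of myelinating Schwann cells had a mean of at least 1. The same held for all 8 adipocyte and all 8 macrophage markers, so this alone does not set nerve apart from other tissue.

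Across the family, levels in the nerve were led by antagonists, and few members were past the mark. Of the 44 members, 25 had a mean FPKM of at least 1. Of the other 19, 3 are listed at 0 in both groups, namely Dkk1, Wnt8a and Rspo4os. Among the 25, 14 were higher and 11 lower in the group labelled HSF V30M, and their median log2 ratio was 0.04, beside 0.00 over the 15620 genes with the same minimum. The 1.5-fold mark was passed by 4 of the 25, or 16%, beside 16.7% of all genes, so the share of members past the mark was close to the background. Wnt2b and Fzd7 were past it on the higher side, where 8.22% of all genes lay, and Dkk2 and Sfrp2 on the lower side, where 8.44% lay. Without a pseudocount 4 members were past the mark on the higher side and 3 on the lower, Wnt7b, Fzd6 and Sfrp4 being added. The counting interval of the fold left out 1 for 18 of the 25, or 72.0%, beside 48.4% of 13968 genes at the minimum mean. The shortest transcript of those genes, a coding one where there was any, had at least 400 bases, and noncoding genes are among them. The counting interval narrows with the number of fragments, and the members were not matched to other genes on their level or type.

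**Figure D1:**
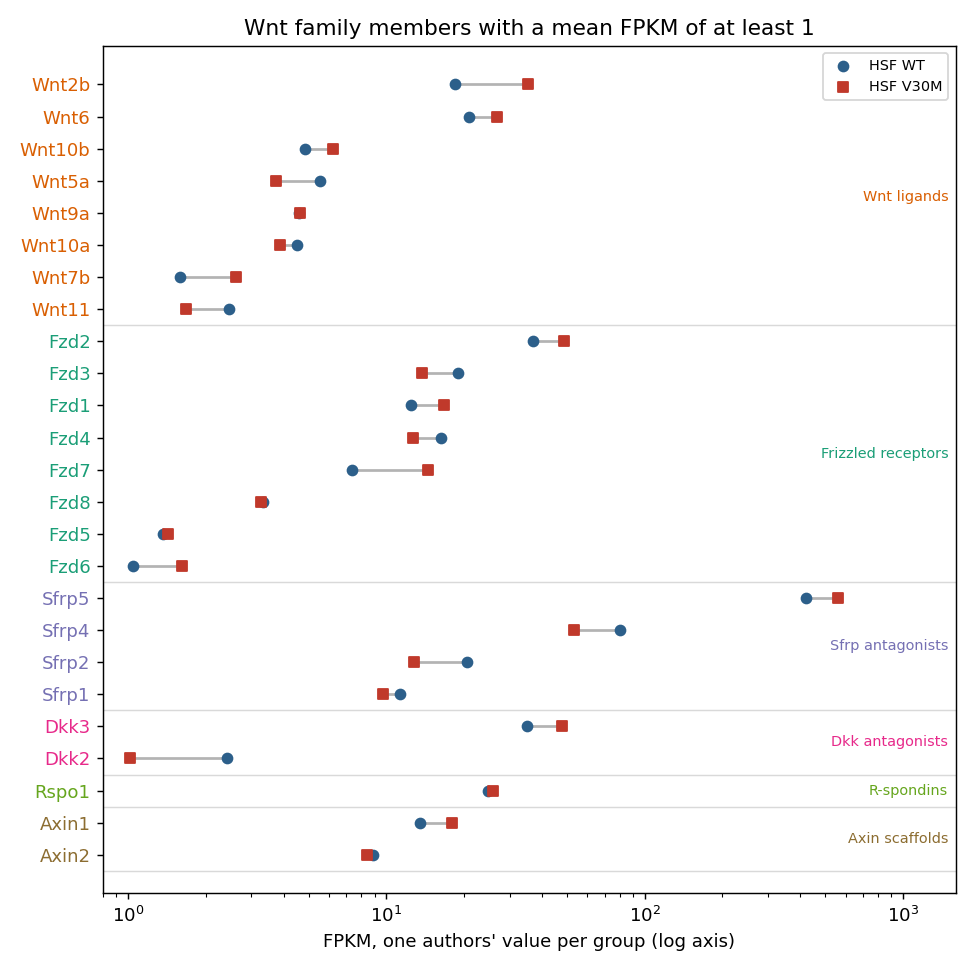
FPKM on a log axis of the 25 members with a mean of at least 1, ordered by role and level, with circles for HSF WT and squares for HSF V30M, each 1 authors' value for the group. Sfrp5 lies far to the right of all others, at 421 and 561, and the widest gaps between circle and square are those of Dkk2, Fzd7 and Wnt2b.

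**Figure D2:**
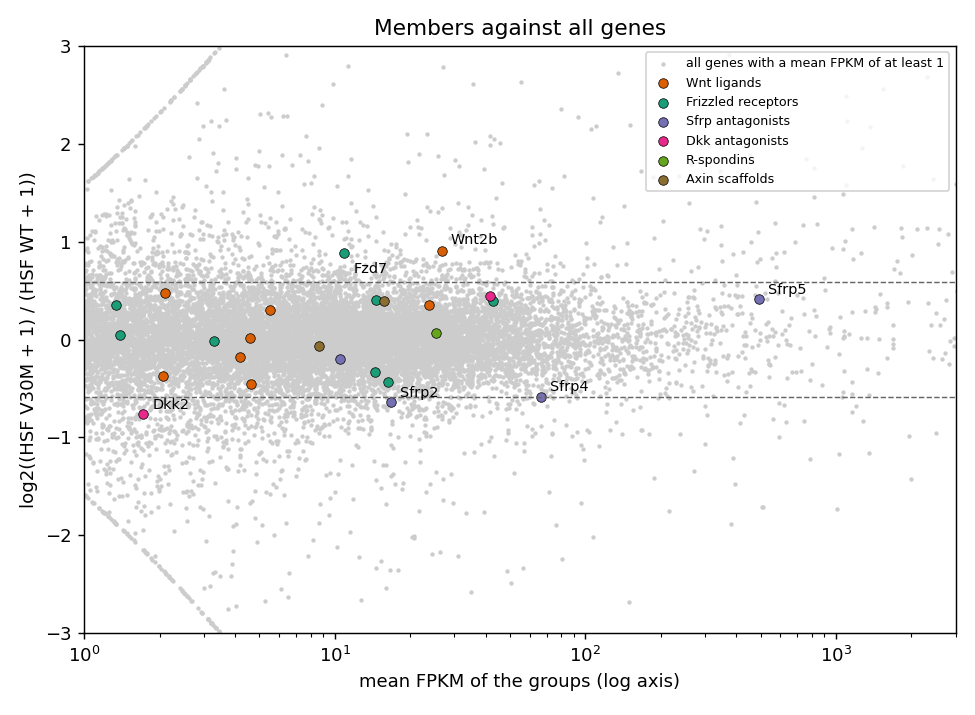
Log2 ratio (HSF V30M to HSF WT) against the mean FPKM (log axis) for all genes with a mean of at least 1 in grey, with members coloured by role. Dashed lines are the 1.5-fold mark, genes beyond the axes are not drawn, and members lie within the cloud, with Wnt2b and Fzd7 above the upper line and Dkk2 and Sfrp2 below the lower.

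The sequences before the start of Fzd7, Dkk2 and Sfrp2 are shown because these members past the mark differed in opposite directions. The sequences are the 250 bases upstream of the RefSeq start in GRCm38.p6, written 5′ to 3′ along the gene, with matches to GGGCGG on either strand, the GC box letters, in capitals. The window of Wnt2b, chr3:104961710-104961959, was searched but is not printed, since by the annotation GENCODE M21 most of it lies within the gene.
Fzd7 (chr1:59481897-59482146, plus strand): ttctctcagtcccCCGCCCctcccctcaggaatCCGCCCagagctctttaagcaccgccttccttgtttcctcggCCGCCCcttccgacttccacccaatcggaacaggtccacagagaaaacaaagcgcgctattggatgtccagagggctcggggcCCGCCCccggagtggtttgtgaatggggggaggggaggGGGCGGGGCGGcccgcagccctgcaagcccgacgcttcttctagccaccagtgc
Dkk2 (chr3:132085042-132085291, plus strand): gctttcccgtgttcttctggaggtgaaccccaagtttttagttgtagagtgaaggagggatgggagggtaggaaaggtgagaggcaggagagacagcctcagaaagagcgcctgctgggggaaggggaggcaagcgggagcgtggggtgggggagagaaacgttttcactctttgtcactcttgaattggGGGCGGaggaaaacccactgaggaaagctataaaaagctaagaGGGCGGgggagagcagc
Sfrp2 (chr3:83766071-83766320, plus strand): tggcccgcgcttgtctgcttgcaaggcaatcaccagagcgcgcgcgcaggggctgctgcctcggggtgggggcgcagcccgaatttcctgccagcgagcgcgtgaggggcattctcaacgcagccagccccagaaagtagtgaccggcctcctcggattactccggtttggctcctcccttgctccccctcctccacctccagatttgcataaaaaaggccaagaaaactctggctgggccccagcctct
Fzd7 holds 6 matches, Wnt2b 3, Dkk2 2 and Sfrp2 none, and overlapping matches were each counted. The letters thus occur before Fzd7, which was higher, and before Dkk2, which was lower, and not before Sfrp2, also lower. The matches of Wnt2b lie within the gene as GENCODE M21 draws it. Whether the letters bear on the levels was not tested. RefSeq windows matched 28 of the members, with 31 windows, since Wnt11 has 2 and Wnt5b has 3. Of these windows, 22 hold GGGCGG on either strand, or 71.0%, beside 44.1% of the 20150 windows of protein-coding genes. Their median GC content was 69.2%, from 48.4% to 87.6%, beside 56.0% over protein-coding genes. The letters CTTTGAT or CTTTGAA on either strand, the core bound by TCF and LEF factors, were in 3 of the 31 member windows, or 9.68%, beside 6.64% of the windows of protein-coding genes. None of the windows of the 4 members past the mark holds them. These are matches of letters, not sites.

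Among the ligands, Wnt2b and Wnt6 stood above the rest in both groups. Wnt2b (ENSMUSG00000027840, chromosome 3, 104945272 to 104961921, minus strand), a ligand known from mesenchyme and from early lung development, had an FPKM of 35.2 in HSF V30M against 18.4 in HSF WT. That is 1.92-fold higher, with a counting interval from 1.77 to 2.07 and 2386 to 2814 fragments against 884 to 1190. Wnt2b held 40.4% of the summed ligand FPKM in HSF V30M and 28.4% in HSF WT, where Wnt6 held the larger share, 32.2%. A sense intronic gene within Wnt2b, Gm43846, had 0.73 against 0 FPKM. An antisense gene that overlaps Wnt6 outside its exons, Gm29539, had 2.03 in HSF V30M against 0.521 in HSF WT. Whether counting used the strand of the reads is not given in the sources used here. Wnt6 (chromosome 1) had 26.9 in HSF V30M against 20.8 in HSF WT, 1.29-fold higher with an interval from 1.17 to 1.43, and did not reach the mark. The order of the leading ligands thus differed between the groups, with Wnt6 first in HSF WT and Wnt2b first in HSF V30M. In HSF WT they were close, at 20.8 for Wnt6 and 18.4 for Wnt2b, and the order was not tested.

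The other ligands with a mean of at least 1 lay between 1.59 and 6.21 FPKM. Wnt10b, which restrains the formation of fat cells, had 6.21 in HSF V30M against 4.85 in HSF WT, and its interval, from 0.959 to 1.72, held 1. Wnt9a, at 4.64 and 4.57, differed by a log2 ratio of 0.02. Wnt10a had 3.87 in HSF V30M against 4.50 in HSF WT, again with an interval that held 1. Wnt7b had 2.61 in HSF V30M against 1.59 in HSF WT, 1.64-fold higher with an interval from 1.19 to 2.27. Its log2 ratio with the pseudocount, 0.48, was short of the mark.

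The ligands best known for acting without beta-catenin, Wnt5a and Wnt11, were both lower in HSF V30M but short of the mark. Wnt5a had 3.75 in HSF V30M against 5.52 in HSF WT, 1.47-fold lower with an interval from 1.25 to 1.74. Wnt11 had 1.68 in HSF V30M against 2.46 in HSF WT, and the interval of its fold, 0.684, reached from 0.468 to 0.998 and so nearly held 1. Wnt5b, the third of that kind, is a low gene, with 0.34 in HSF V30M against 0.540 in HSF WT. The interval of its fold, from 0.285 to 1.38, held 1. Over the 8 ligands with a mean of at least 1, 5 were higher and 3 lower, with a median log2 ratio of 0.16, which changed with the minimum mean as given with the alternatives. The summed FPKM of all 19 ligands was 87.0 in HSF V30M against 64.6 in HSF WT.

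The remaining 11 ligands had means of 0.641 or less. Wnt16 had 0.93 in HSF V30M against 0.331 in HSF WT, which stands for 20 to 74 fragments against 5 to 21, and Wnt4 had 0.27 and 0.105. Their intervals, from 1.02 to 9.57 and from 1.02 to 7.75, reached nearly to 1, and both genes were picked for mention after their values were seen. Wnt3 was at 0.05 and Wnt9b at 0.03 in HSF V30M, about 3 fragments each, and both are listed at 0 in HSF WT, which allows a level of up to 0.0675 for Wnt3. No fold is given for these, since their levels in HSF V30M were under the limit for HSF WT. Wnt2 had 0.45 in HSF V30M against 0.831 in HSF WT, with an interval that held 1. Wnt3a and Wnt7a were at 0.04 and 0.02 in HSF V30M with no fragment in HSF WT, and Wnt8b and Wnt1 were at or below 0.0739 in both groups.

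Some ligand genes lie beside each other, and in most of these pairs the neighbours were far apart in level. Within 100 kb of one another on GRCm38 there are 4 pairs of members, all of them Wnt genes. Wnt6 (chromosome 1, 74771892 to 74785322) and Wnt10a (74791516 to 74804179) lie on the plus strand 6.19 kb apart, and Wnt6 was the higher by far in both groups. Wnt10b, on the minus strand of chromosome 15 from 98770712 to 98778150, lies 11.7 kb from Wnt1, on the plus strand from 98789857 to 98793837. Wnt1 was at 0.06 in HSF V30M against 0.0739 in HSF WT, about 3 fragments or fewer. On chromosome 11, Wnt9a is 16.2 kb from Wnt3a, at 0.04 and 0, and Wnt3 is 24.3 kb from Wnt9b. In that last pair both genes were near 0, whereas Wnt9a was at 4.64 in HSF V30M.

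Among the Frizzled receptors Fzd2 led in level, and Fzd7 had the largest log2 ratio of the 8 with a mean of at least 1. Fzd2, the highest, had 48.8 in HSF V30M against 36.8 in HSF WT, 1.32-fold higher with an interval from 1.25 to 1.40. Its close relatives Fzd1 and Fzd7 were also higher in HSF V30M. Fzd1 had 16.7 in HSF V30M against 12.4 in HSF WT, 1.35-fold higher with an interval from 1.23 to 1.47. Fzd7 (ENSMUSG00000041075, chromosome 1, 59482424 to 59486955, plus strand), whose upstream window is printed above, had 14.4 in HSF V30M against 7.37 in HSF WT. It was 1.96-fold higher, with an interval from 1.77 to 2.18, on 1359 to 1603 fragments against 493 to 664. Of these close relatives only Fzd7 was past the mark, and the difference between their folds was not tested.

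Fzd3 and Fzd4 went the other way. Fzd3, known for its part in the guidance of axons, had 13.8 in HSF V30M against 18.9 in HSF WT, 1.38-fold lower with an interval from 1.31 to 1.44. Fzd4, a receptor of blood vessels that also binds Norrin, had 12.7 in HSF V30M against 16.2 in HSF WT, 1.27-fold lower with an interval from 1.19 to 1.36. Fzd6, a partner of Fzd3 in planar polarity, had 1.62 and 1.05, higher in HSF V30M with an interval from 1.14 to 2.12. Fzd8, at 3.26 and 3.32, and Fzd5, at 1.43 and 1.36, had intervals that held 1. Fzd9 and Fzd10 were at or below 0.25 in both groups. In the order of levels, Fzd3 was below Fzd2 alone in HSF WT, while in HSF V30M Fzd1 and Fzd7 stood above it as well. This order was not tested. The 8 receptors with a mean of at least 1 comprised 5 higher and 3 lower, and their log2 ratios had a median of 0.20. Fzd1, Fzd2, Fzd7, Fzd8, Fzd9 and Fzd10 have 1 exon in the transcript taken. The 339 coding genes with 1 exon and that minimum lay at a median log2 ratio of 0.05, beside 0.00 for those with more exons.

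**Figure D3:**
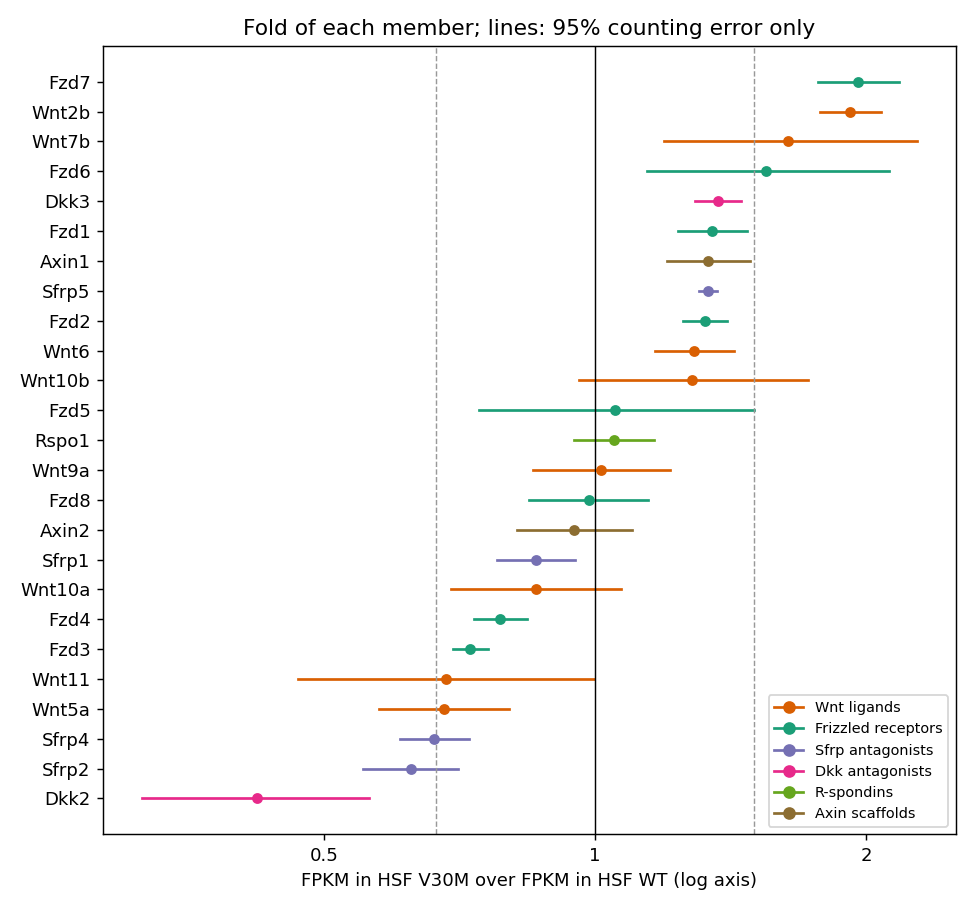
Fold of HSF V30M over HSF WT (log axis) of each member with a mean FPKM of at least 1, in order of the fold and coloured by role, with lines for the 95% counting interval and dashed lines at 1.5-fold either way. Intervals reach from 0.314 for the low end of Dkk2 to 2.27 for the high end of Wnt7b, and they leave out differences between mice.

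The secreted antagonists summed to the highest level of any role and pointed both ways. Sfrp5 (ENSMUSG00000018822, chromosome 19, 42197971 to 42202252, minus strand), which binds Wnts and is also known as a product of fat tissue, had 561 in HSF V30M against 421 in HSF WT, the highest of all members. It was 1.33-fold higher, with an interval from 1.30 to 1.36, and did not reach the mark. Sfrp5 made up 88.1% of the summed Sfrp level in HSF V30M and 79.0% in HSF WT. The adipocyte markers were lower in HSF V30M, 8 of 8, with summed FPKM of 2620 and 3571, and their part in the Sfrp5 value was not tested.

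The other Sfrp genes taken by the symbol rule were lower in HSF V30M. Frzb, also known as Sfrp3, is outside that rule and was higher, at 41.0 in HSF V30M against 10.5 in HSF WT. Sfrp4 had 53.1 in HSF V30M against 80.1 in HSF WT, 1.51-fold lower with an interval from 1.38 to 1.65. Its log2 ratio of -0.58 lay just inside the mark, and it crossed the mark with median-of-ratios scaling. Sfrp2 (ENSMUSG00000027996, chromosome 3, 83766321 to 83774316, plus strand), whose window above holds no GC box letters, had 12.8 in HSF V30M against 20.6 in HSF WT, 1.60-fold lower with an interval from 1.42 to 1.81, and passed the mark. An antisense gene, Gm26771, overlaps exons of Sfrp2 and is listed at 0 in both groups. Sfrp1 had 9.74 and 11.3, 1.16-fold lower with an interval from 1.05 to 1.28. Sfrp2 and Sfrp4 are well known from fibroblasts, and of the 8 fibroblast markers 3 were higher and 5 lower in HSF V30M, with sums of 2331 and 2451. Among those markers Pi16, of adventitial fibroblasts, was past the mark, at 42.4 in HSF V30M against 83.0 in HSF WT. The part of these cells in the Sfrp values was not tested. In bulk tissue fewer cells of a type and less RNA per cell cannot be told apart.

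Among the Dickkopf genes, Dkk3 and Dkk2 went in opposite directions. Dkk3, a divergent member that is not a typical Wnt inhibitor, had 48.1 in HSF V30M against 35.1 in HSF WT, 1.37-fold higher with an interval from 1.29 to 1.45. Dkk2 (ENSMUSG00000028031, chromosome 3, 132085292 to 132180304, plus strand), which binds Lrp5 and Lrp6, had 1.02 in HSF V30M against 2.42 in HSF WT. Dkk2 was 2.37-fold lower, with an interval from 1.78 to 3.18, on 78 to 92 fragments against 131 to 177. Dkk4 was at 0 in HSF V30M against 0.0431 in HSF WT, about 1 fragment. The 8 Sfrp and Dkk genes summed to 686 in HSF V30M against 571 in HSF WT, 1.20-fold higher. Without Sfrp5, the sum of the other 7 was 125 in HSF V30M against 150 in HSF WT, so among these 8 genes the direction of the sum rests on Sfrp5. These sums leave out antagonists outside the symbol rule, such as Frzb, at 41.0 in HSF V30M against 10.5 in HSF WT.

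Of the R-spondins, Rspo1 alone was above 1. Rspo1 had 26.0 in HSF V30M against 24.8 in HSF WT, with an interval from 0.947 to 1.16 that held 1. Rspo2 and Rspo3 were low and pointed in opposite directions. Rspo2 had 0.20 in HSF V30M, or 13 to 16 fragments, and is listed at 0 in HSF WT, with an upper limit of 0.0672 at 3 fragments. Taken against that limit Rspo2 was 2.98-fold higher, a figure that leaves out the counting error of its own fragments. Rspo3, named after its values were seen, had 0.07 in HSF V30M against 0.329 in HSF WT, about 4 to 5 fragments against 15 to 20. Rspo4 was at 0 and 0.0520, which is about 2 fragments in HSF WT.

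Neither of the scaffold genes was past the mark. Axin1 had 18.0 in HSF V30M against 13.4 in HSF WT, 1.34-fold higher with an interval from 1.20 to 1.48. Axin2, which is itself switched on by beta-catenin and is widely read as a sign of Wnt activity, had 8.43 in HSF V30M against 8.89 in HSF WT. Its log2 ratio was -0.07, and its interval, from 0.819 to 1.10 for HSF V30M over HSF WT, held 1.

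Other genes of the pathway were described from lists of 99 symbols, of which 97 are in the table and 87 had a mean of at least 1. The remaining symbols, Gpr124 and Ccn4, are other names of Adgra2 and Wisp1, which are listed. Of the 87, 5 were past the mark on the higher side and 1 on the lower, 6.90% in all beside the 16.7% of all genes. Their median log2 ratio was 0.11, with 54 higher and 33 lower. On the log2 scale with the pseudocount, the 2 largest differences were in secreted antagonists outside the symbol rule, Frzb at 1.87 and Wif1 at 1.42. By the plain fold Rnf43, given below, differed more. Frzb, also known as Sfrp3, had 41.0 in HSF V30M against 10.5 in HSF WT, 3.92-fold higher with an interval from 3.55 to 4.33. Wif1, which binds Wnts directly, had 5.16 in HSF V30M against 1.30 in HSF WT, 3.96-fold higher with an interval from 2.82 to 5.69. The other antagonists with a mean of at least 1 were Sostdc1, at 46.3 and 53.3, Apcdd1, at 21.4 and 20.1, and Kremen1, at 13.2 and 11.2, none past the mark.

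At the cell surface, 15 listed genes had a mean of at least 1, with 2 past the mark on the higher side and 1 on the lower. Of all genes, 8.22% lay past it on the higher side and 8.44% on the lower. Adgra2, which with Reck serves Wnt7 signals in blood vessels of the brain, had 20.97 in HSF V30M against 11.7 in HSF WT, 1.79-fold higher with an interval from 1.65 to 1.93. Of the 7 endothelial markers 5 were higher and 2 lower, with Vwf and Cldn5 past the mark on the higher side. Their sums were 265 and 198, and without Vwf and Cldn5 112 and 113, and their part in the Adgra2 and Fzd4 values was not tested. Lgr6, an R-spondin receptor, had 1.44 in HSF V30M against 0.599 in HSF WT. Rnf43, which removes Frizzled receptors from the membrane and is itself a Wnt target, had 0.41 in HSF V30M against 1.86 in HSF WT, 4.53-fold lower with an interval from 2.77 to 7.69. The co-receptors Lrp6, at 20.95 and 20.04, and Lrp5, at 11.7 and 9.44, were not past the mark.

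Inside the cell, none of the 23 cytoplasmic genes and 1 of the 16 nuclear genes with a mean of at least 1 passed the mark. Ctnnb1, the gene of beta-catenin, had 296 in HSF V30M against 257 in HSF WT. Lef1, a factor that acts with beta-catenin on DNA and is also a target, had 7.65 in HSF V30M against 3.54 in HSF WT, 2.16-fold higher with an interval from 1.75 to 2.69. Its relative Tcf7l2 had 16.3 and 22.9, lower in HSF V30M and short of the mark. Of the 16 listed targets with a mean of at least 1, Lef1 was past the mark on the higher side and Rnf43 on the lower, and their median log2 ratio was 0.11. None of the 17 genes of planar polarity and related branches was past it.

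**Figure D4:**
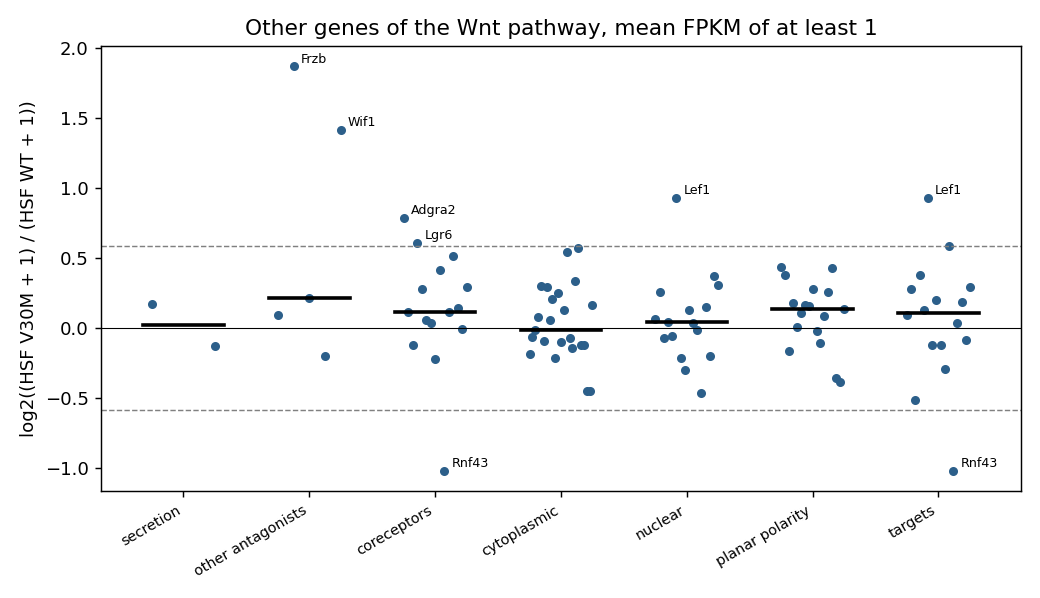
Log2 ratio (HSF V30M to HSF WT) of each listed pathway gene with a mean FPKM of at least 1 (points), by list, with the median of each list as a bar and the 1.5-fold mark dashed. Frzb and Wif1 lie highest and Rnf43 lowest. Lef1, Rnf43, Apcdd1, Nkd1, Tcf7, Lgr5 and Znrf3 stand in 2 lists each, the targets and 1 other.

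Several lists of markers of other cells had medians further from 0 than that of the Wnt family. All 7 skeletal muscle markers with a mean of at least 1 and all 5 such B cell markers were past the mark on the lower side, with sums over the whole lists of 45.9 against 174 for muscle and of 3.49 against 29.7 for B cells. All 6 neutrophil markers and 5 of 6 erythroid markers were past it on the higher side, with sums of 104 and 26.3 and of 291 and 101. The 8 macrophage markers had sums of 218 in HSF V30M against 349 in HSF WT and the 6 perineurial ones 526 and 446. Of the 8 markers of smooth muscle and pericytes 5 were higher and 3 lower, with 2 past the mark on each side. Their sums were 697 and 1307, and without Tagln, the highest of them, 225 and 204. Of the 10 markers of myelinating Schwann cells, 6 were higher and 4 lower, and S100b was past the mark. Of the 6 keratinocyte markers none reached a mean of 1, their sums were 1.46 and 1.57, and 2 are listed at 0 in both groups. The part of any of these cells in the values of the Wnt family was not tested.

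**Figure D5:**
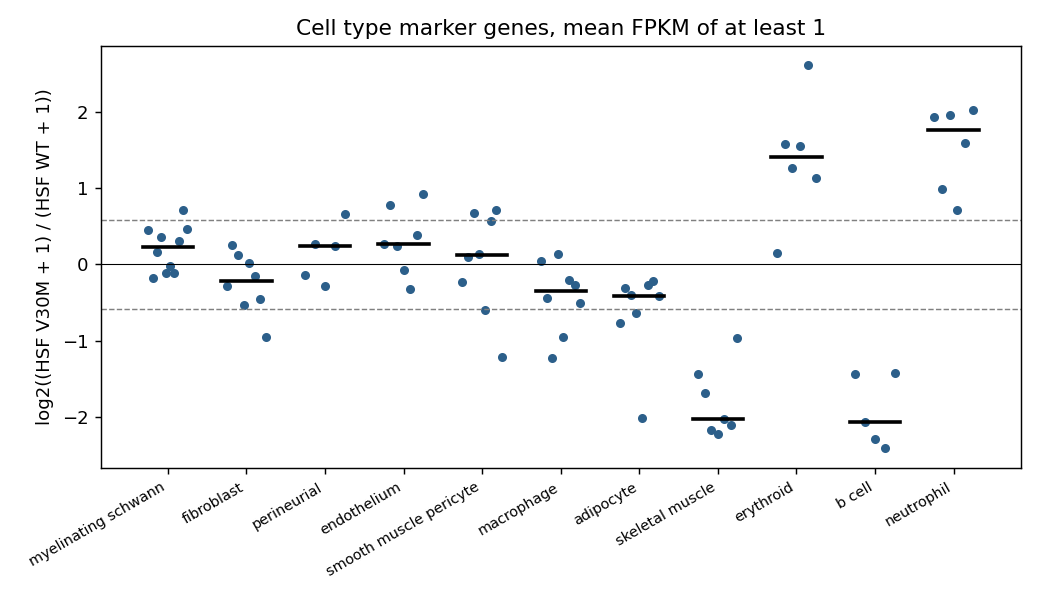
Log2 ratio (HSF V30M to HSF WT) of each cell type marker with a mean FPKM of at least 1 (points), by list, with medians as bars and the 1.5-fold mark dashed. Medians reach from -2.07 for B cells to 1.76 for neutrophils, against 0.04 for the Wnt family.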

How the data were processed

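Ion Torrent libraries were made from nerve RNA of the 4 mice. The authors aligned reads to GRCm38 and ran Cuffdiff between the groups, and the labels name STAR and Cufflinks too, without versions. They deposited 1 table with 1 FPKM per gene and group, in decimal commas, rounded to 2 decimals for HSF V30M. Its columns of fold change, test statistic, p-value and q-value were not used here, nor were 23 genes that Cuffdiff gave no estimate for because of too many reads.

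Ratios were taken with a pseudocount of 1, the minimum mean was 1 FPKM and the mark 1.5-fold. The worth of 1 fragment was read from 1-transcript genes alone in their locus and over 600 bases long, with 200 bases taken off the length. In HSF WT it was 0.0481 and 0.0647 FPKM times kilobases, with 98.0% of 1183 low values whole to within 2%. In HSF V30M it was 0.0390 and 0.0460, from rounded values and so less sure. Ranges of fragments run over the basic coding transcripts of GENCODE M21, which matched all 44 members. Intervals use the smaller number, limits at 0 are 3 fragments, and upstream windows are from RefSeq.

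Named were every member at the minimum mean, lower ones with 3 or more fragments against 0, pathway genes past the mark and 5 core genes. Other members under that mean, and Sostdc1, Apcdd1 and Kremen1, were named after their values were seen. Members and lists were chosen with earlier results of these data known. The level of 1 marker gene is not reported here. The steps were tested on simulated data. Alternatives were a pseudocount of 0.1, minimum means of 0 and 5, median-of-ratios scaling, a fold of 2 and, added after seeing the data, no pseudocount and ratios relative to genes of like GC content. The software was Python 3.11.15 with scipy 1.17.1, pandas 2.3.3, numpy 2.4.6 and matplotlib 3.10.9.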

Additional observations from a re-analysis of the deposited data

How the results depend on the processing

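No paired analysis was possible because each group has 1 deposited value and no value per mouse, and for the same reason limma was not run and no mouse was left out. Members past the mark, 2 higher and 2 lower as reported, were 0 and 0 with a fold of 2, 4 higher without a pseudocount, and 1 lower with a minimum mean of 5, where Dkk2 is not considered. The share of members past the mark lay between 9.09% without a minimum and 28% without a pseudocount at folds of 1.5, beside 7.14% and 22.5% of all genes. With a minimum of 5 it was 18.75%, beside 13.5% of all genes. With a fold of 2, 7.92% of all genes were past it. Relative to genes of like GC content, the counts were again 2 and 2. The pathway count of 5 higher was 9 with a pseudocount of 0.1 and 9 with none, 3 with a minimum of 5 and 2 with a fold of 2. The count of 1 lower was 2 without a minimum and 0 with a minimum of 5. These are counts among 87 pathway genes, or 64 with a minimum of 5 and 97 without one. With a pseudocount of 0.1, 21.7% of all genes were past the mark in either direction, and the other shares are those given above. The median log2 ratio of the ligands, 0.16, was 0.0286 without a minimum and 0.35 with a minimum of 5. That of the receptors, 0.20, was 0.0864 and 0.40, and that of all members, 0.04, was 0.33 with a minimum of 5. These settings keep other genes by construction. Of 75 comparisons of single members, 74 moved by less than the counting error, and 1 moved further, Dkk2 without a pseudocount, at -1.25. These comparisons were of other pseudocounts and of median-of-ratios scaling, whose factors were 1.001 for HSF V30M and 0.999 for HSF WT. No member past the mark changed sign, but a pseudocount cannot turn a ratio and such factors hardly can. The sign was thus all but fixed in advance. Depth limits the members under 1 FPKM, and the worth of a fragment is least sure in HSF V30M.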

Other observations

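GC content moved with the ratios, in the family and across the table. The 12704 coding genes at the minimum mean were put into 5 bins of nearly equal size by the GC content of the longest coding transcript. In the bin with the highest GC content, from 56.1% up, the median log2 ratio was 0.10, and in the bin with the lowest, up to 44.6%, it was -0.05. Of the 25 members, 10 were in the highest bin, with 8 higher and 2 lower in the group labelled HSF V30M, and 2 were in the lowest, both lower. The 14 higher members had a median GC content of 56.5%, from 47.4% to 61.3%, and the 11 lower ones 50.8%, from 40.3% to 63.8%. Across the 25 members, Spearman's rho of GC content and log2 ratio was 0.53 and Pearson's r 0.50, over genes of the same libraries and with no test. Across all 12704 genes rho was 0.17 and r 0.13. Relative to the median of its own bin, Wnt2b had a log2 ratio of 0.80, Fzd7 0.87, Sfrp2 -0.65 and Dkk2 -0.72. On that scale 12 of the 25 members were higher and 13 lower, in place of 14 and 11, since Wnt9a, at -0.09, and Rspo1, at -0.04, lay on the other side of 0.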
